A study of Mus musculus with 20 samples.

Results

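The comparison described here is between the livers of mice gavaged with sunflower oil and the livers of mice gavaged with phosphate-buffered saline (PBS), the 2 carriers that stood as drug-free controls in a study of drug-treated mouse liver. The arrays were chosen by their labels alone and make up 10 of the 20 arrays of the series, 5 with oil and 5 with PBS. All arrays hold liver RNA of male mice of strain C57BL/6, 10 weeks old and of 21 to 27 g body weight, that were gavaged for 25 days. The oil group is the vehicle control of ethinylestradiol (EE2), a synthetic estrogen given at 3.70 mg/kg in oil, and the PBS group is the vehicle control of chlorpromazine (CPZ), an antipsychotic given at 10 mg/kg in PBS. Neither group here received a drug, and no group without gavage is used here, so a difference cannot be assigned to the oil or to the PBS. The labels give neither the volume gavaged nor the diet nor the hour of sampling, and do not state whether the numbered samples are separate animals. The p-values therefore speak only of the spread among these samples, which may be technical.

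Sunflower oil is mostly triglyceride rich in linoleic acid and carries vitamin E, whereas PBS is a salt solution without calories. Fatty acids that reach the liver can be burned in mitochondria and peroxisomes, and they are ligands of the nuclear receptor PPARalpha, which switches on the genes of that oxidation. Polyunsaturated fatty acids are also known to lower the activity of SREBP-1c and thereby the genes of fatty acid synthesis, and meal timing and fat intake are known to act on the liver clock.

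Each array gave 1 log2 level per gene for 16464 named genes, summarised by robust multi-array average (RMA). Precision is limited by how many arrays there are. The medians of the oil arrays and of the PBS arrays both ran from 4.43 to 4.46, and arrays of 1 group correlated across genes at 0.995 to 0.997 with oil and at 0.994 to 0.997 with PBS. The liver label held for both groups. Albumin (Alb) lay between 14.11 and 14.20 with oil and between 14.15 and 14.20 with PBS, and transthyretin (Ttr) between 13.75 and 13.82 with oil and between 13.73 and 13.80 with PBS. The mean level of 15 hepatocyte markers ran from 11.75 to 11.89 with oil and from 11.80 to 11.89 with PBS. The sample numbers averaged 7.4 with oil and 14.0 with PBS, and what the numbers stand for is not given in the sources used here. One array stood apart in part of the genes: PBS array 20 held the highest levels of several inflammation genes, and the results that it moves most are given with and without it.

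Few genes separated the carriers. With limma over all 20 arrays and Benjamini-Hochberg adjustment over all genes, 8 of 16464 genes passed at an adjusted p under 0.05, which is 0.0486% of those tested. Of these, 3 rose with oil (0.0182%), the clock repressors Cry2 and Cry1 and the fibrillar collagen chain Col27a1. The 5 that fell (0.0304%) were Aldh1b1, a mitochondrial aldehyde dehydrogenase, Atp6v0d2, a subunit of the proton pump that acidifies lysosomes, the ubiquitin-conjugating enzyme Ube2u, the zinc finger protein Zbtb45 and the ubiquitin ligase Trim2. At an unadjusted p under 0.05 there were 1414 genes (8.59%), 709 higher and 705 lower with oil. The median size of the difference over all genes was 0.06 on the log2 scale and the median standard error 0.08.

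Array values below are log2 levels in the order of the sample numbers, which are 2, 5, 6, 8 and 16 for oil and 7, 10, 14, 19 and 20 for PBS. Differences are log2 values of oil minus PBS, and SE is the standard error from the fit.

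Cry2 encodes a cryptochrome, one of the proteins that shut off the transcription factor pair CLOCK and BMAL1 in the daily feedback loop. Its level was 7.60, 7.56, 7.34, 7.71 and 7.49 with oil and 7.08, 7.17, 6.90, 7.23 and 7.22 with PBS. Each oil array lay above each PBS array, and the means were 7.54 ± 0.14 and 7.12 ± 0.14 (SD, n = 5 each), a difference of 0.42 (SE 0.07, adjusted p = 0.0185), or 1.34-fold. Its paralog Cry1 was at 6.49, 6.25, 6.03, 6.05 and 6.09 with oil and at 5.78, 5.75, 5.35, 5.49 and 5.66 with PBS. The groups did not overlap here either, with a difference of 0.58 (SE 0.10, adjusted p = 0.0406), or 1.49-fold, and oil array 2 was the highest.

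Col27a1 was at 6.93, 7.25, 7.11, 7.58 and 7.62 with oil and at 6.89, 6.44, 6.52, 6.21 and 6.59 with PBS. Its difference was 0.77 (SE 0.14, adjusted p = 0.0406), but the lowest oil array exceeded the highest PBS array by a small margin. Other collagen genes are among the stellate cell and matrix markers, of which 0 of 22 passed the test, with a median difference of 0.01.

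Aldh1b1 had the largest difference among the called genes. It stood at 7.95, 7.82, 8.19, 8.02 and 8.32 with oil and at 9.02, 8.70, 8.88, 9.78 and 9.24 with PBS, a difference of -1.06 (SE 0.15, adjusted p = 0.0046), so that its level with oil was 2.09-fold lower. PBS array 19 was the highest, and the groups were separated without it too. Atp6v0d2 stood at 4.24, 3.94, 4.02, 4.35 and 4.61 with oil and at 4.86, 4.86, 5.42, 5.20 and 5.40 with PBS, a difference of -0.92 (SE 0.15, adjusted p = 0.0234). It was the 1 called member of 22 measured lysosome and phospholipid storage genes, whose median difference was -0.01, with 10 members above zero.

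Trim2 had the smallest p of all genes. It was at 6.78, 6.70, 6.72, 6.79 and 6.78 with oil and at 7.19, 7.07, 7.18, 7.05 and 7.13 with PBS, a difference of -0.37 (SE 0.05, adjusted p = 0.00242). The means were 6.75 ± 0.04 with oil and 7.12 ± 0.06 with PBS (SD, n = 5 each), and both groups were tight. Ube2u was at 3.94, 3.55, 3.68, 3.83 and 4.12 with oil and at 4.56, 4.34, 4.66, 4.52 and 4.53 with PBS, with a difference of -0.70 (SE 0.11, adjusted p = 0.00937). Zbtb45 was at 3.46, 3.59, 3.47, 3.37 and 3.49 with oil and at 4.05, 3.77, 3.81, 3.88 and 3.79 with PBS, with a difference of -0.38 (SE 0.07, adjusted p = 0.0406). Both are low levels on these arrays, yet neither gene had overlapping groups.

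**Figure D1:**
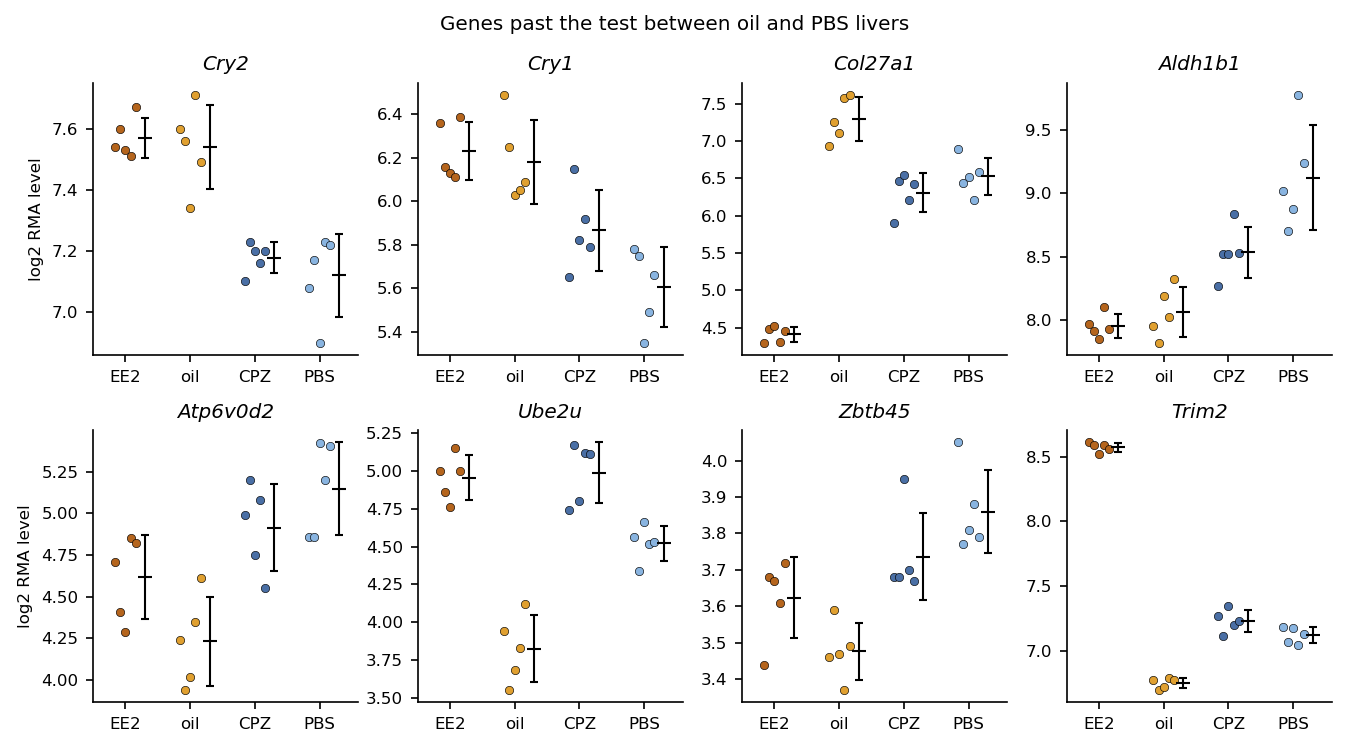
Log2 RMA level on each array of the 8 genes that passed the test between oil and PBS, with the EE2, oil, CPZ and PBS groups from left to right; points are arrays and bars are the mean ± SD of 5 arrays. In every panel the 5 oil points lie on one side of the 5 PBS points, and for Cry2 the EE2 points lie with the oil points (7.51 to 7.67) and the CPZ points with the PBS points (7.10 to 7.23).

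Trim2 and Aldh1b1 passed the test whichever single array was left out, and Ube2u passed except without PBS array 14 (adjusted p = 0.0541). Cry2 passed in 6 of the 10 fits, missing without PBS array 14 (0.061) and without oil arrays 2 (0.0678), 5 (0.0609) and 8 (0.0703). Atp6v0d2 passed in 4, without oil array 16 or PBS arrays 7, 10 or 19, and Cry1 in 3, without oil array 16 or PBS arrays 7 or 10. Col27a1 passed without oil array 2 (0.0202) or PBS array 7 (0.0231) and missed without each of the other 8. Zbtb45 passed only without PBS array 10 (0.0426). A fit to the 10 oil and PBS arrays alone called 0 genes, with adjusted p between 0.0653 and 0.123 for these 8. Some uncalled genes described further on lay in that range in the same fit. Among them were Mt1 (0.0653), Cyp2b10, Scd1 and Mmd2 (0.0665 each), Hamp2 (0.0847) and Mt2 (0.0926). The order of genes by p thus depends on the spread in the drug groups.

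The EE2 and CPZ arrays were not used to find the called genes other than through the shared spread, and their levels are given side by side. Cry2 was at 7.51 to 7.67 in EE2 livers, whose drug was given in oil, and at 7.10 to 7.23 in CPZ livers, whose drug was given in PBS. Cry1 was at 6.11 to 6.39 in EE2 livers and at 5.65 to 6.15 in CPZ livers, and Aldh1b1 at 7.85 to 8.10 in EE2 livers and at 8.27 to 8.84 in CPZ livers. Trim2 and Col27a1 had a different layout, with EE2 livers at 8.52 to 8.61 for Trim2 and at 4.30 to 4.52 for Col27a1, beyond both vehicle groups. Ube2u was at 4.76 to 5.15 in EE2 livers and at 4.74 to 5.17 in CPZ livers, above PBS in both.

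Across all genes, 17 (0.103%) had every oil and EE2 array on one side of every PBS and CPZ array, 6 higher and 11 lower. The 6 higher ones were Cry2, Crebrf, which restrains the stress factor CREB3, the ubiquitin ligase Cblb, Ypel5, the autophagy gene Uvrag and the fatty acid hydroxylase Cyp4v3. Among the 11 lower ones were the bile salt export pump Abcb11, the elongase Elovl3, the sulfate donor synthase Papss2 and several enzymes of amino acid and sulfur metabolism: Kynu of tryptophan breakdown, Gnmt, which uses up S-adenosylmethionine, Qdpr, which regenerates the cofactor of phenylalanine hydroxylase, and Ethe1 of sulfide oxidation. The others were Zfp638, Tatdn1, the small heat shock protein Hspb8 and the prohibitin Phb. Most of these genes also differed between EE2 and oil livers (adjusted p under 0.05 in the limma fit), so they do not share a level by carrier. They were Papss2, Cblb, Zfp638, Abcb11, Uvrag, Gnmt, Ethe1, Hspb8, Qdpr, Phb and Elovl3. Elovl3 was at 2.89 to 4.18 with EE2 and at 9.66 to 10.35 with oil. Abcb11 was at 9.90 to 10.34 with EE2 and at 10.60 to 10.72 with oil. Ethe1 was at 9.25 to 9.79 with EE2 and at 10.06 to 10.41 with oil. Of the 17, only Cry2 passed the test between oil and PBS. Cry2, Crebrf, Papss2, Abcb11, Gnmt and Elovl3 were named for their small p in these same data. The other genes were named after their values were seen.

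Papss2 shows the pattern with little spread. It was at 8.40, 8.50, 8.36, 8.50 and 8.45 with oil and at 8.68, 8.77, 8.78, 8.70 and 8.83 with PBS, a difference of -0.31 (SE 0.06, adjusted p = 0.0545). EE2 livers were at 8.10 to 8.39 and CPZ livers at 8.57 to 8.70. On average EE2 livers lay below oil livers, with EE2 minus oil at -0.20 (SE 0.06, adjusted p = 0.00996 in the limma fit). Kynu was at 9.97, 9.63, 9.77, 9.74 and 9.75 with oil and at 10.02, 10.02, 10.06, 10.01 and 10.13 with PBS (difference -0.28, SE 0.06, adjusted p = 0.133), with EE2 livers at 9.53 to 9.84 and CPZ livers at 10.24 to 10.36. Both genes were picked for this layout of the 4 groups, so it is a description. Since the oil group is the control of EE2 and the PBS group the control of CPZ, these levels share no array, but drug and carrier cannot be told apart in them.

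The promoters of Cry1 and of 3 genes described further on are shown because a well-known element of the clock, of metal response or of amino acid response lies close to their start. Each is the 250 bases before the annotated start, on the gene's own strand, from RefSeq on GRCm38.p6. Capitals mark the matches to CACGTG (the E-box bound by CLOCK and BMAL1) in Cry1, to TGCACNC or TGCGCNC (the metal response element core) on either strand in Mt1 and Mt2, and to TGATGNAA (an amino acid response element) in Asns.
Cry1, minus strand, chr10:85185055-85185304: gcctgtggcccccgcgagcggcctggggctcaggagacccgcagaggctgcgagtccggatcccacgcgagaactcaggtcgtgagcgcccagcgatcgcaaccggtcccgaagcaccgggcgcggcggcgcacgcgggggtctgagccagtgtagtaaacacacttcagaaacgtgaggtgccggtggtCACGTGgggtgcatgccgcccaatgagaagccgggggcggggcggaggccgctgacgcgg
Mt1, plus strand, chr8:94178839-94179088: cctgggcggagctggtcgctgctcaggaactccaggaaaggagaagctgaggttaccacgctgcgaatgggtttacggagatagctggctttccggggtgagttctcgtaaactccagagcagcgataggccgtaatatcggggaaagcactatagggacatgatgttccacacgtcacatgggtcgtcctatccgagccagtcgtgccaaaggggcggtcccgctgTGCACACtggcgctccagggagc
Mt2, plus strand, chr8:94172368-94172617: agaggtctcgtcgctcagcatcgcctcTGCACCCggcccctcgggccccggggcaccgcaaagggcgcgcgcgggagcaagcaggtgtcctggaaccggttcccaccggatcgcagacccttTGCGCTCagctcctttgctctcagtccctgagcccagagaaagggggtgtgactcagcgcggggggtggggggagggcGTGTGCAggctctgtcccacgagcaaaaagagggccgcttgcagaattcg
Asns, minus strand, chr6:7693210-7693459: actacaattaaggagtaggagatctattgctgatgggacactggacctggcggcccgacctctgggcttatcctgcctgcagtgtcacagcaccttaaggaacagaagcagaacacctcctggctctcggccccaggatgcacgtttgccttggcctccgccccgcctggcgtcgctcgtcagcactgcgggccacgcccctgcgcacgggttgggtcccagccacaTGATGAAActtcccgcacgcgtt
The E-box of Cry1 begins 60 bases before the start. The same window of Cry2 held 0 matches to CACGTG and 0 to the D-box letters TTATGNAA. On both strands, 6.02% of 32817 RefSeq promoter windows of this length hold CACGTG, 3.07% hold TTATGNAA, 21.4% hold the metal response core and 3.45% hold TGATGNAA. A match is a run of letters and not a measured binding site.

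Apart from the cryptochromes no clock gene passed the test. Of 17 measured core clock genes, 2 rose (Cry1 and Cry2) and 0 fell, 11 of 17 differences were above zero, and the median was 0.06, beside 49.9% above zero and a median of 0.00 over all genes. The activators Clock, Arntl (BMAL1) and Npas2 differed by -0.20 (SE 0.10), -0.12 (SE 0.14) and 0.04 (SE 0.08). The means of Npas2, 2.97 with oil and 2.94 with PBS, lay below the lower quartile of all genes (3.16 and 3.15). Npas2 is thus not shown to be above background. The repressors Per1, Per2 and Per3 differed by 0.14 (SE 0.18), -0.07 (SE 0.12) and 0.14 (SE 0.09), and the REV-ERB receptors Nr1d1 and Nr1d2 by -0.16 (SE 0.17) and 0.06 (SE 0.06). None of these 8 passed, with adjusted p between 0.634 and 0.948. Nfil3, a repressor of D-box genes, differed by 0.55 (SE 0.21, adjusted p = 0.453), the receptor Rora by 0.25 (SE 0.11, adjusted p = 0.518) and the repressor Ciart by 0.25 (SE 0.19, adjusted p = 0.776).

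Of 17 genes that the clock is known to drive, 0 passed and 11 were above zero, with a median of 0.06. The deubiquitinase Usp2 was at 9.23, 9.65, 9.46, 9.46 and 9.39 with oil and at 8.54, 9.33, 9.07, 8.79 and 9.03 with PBS (difference 0.48, SE 0.16, adjusted p = 0.321), with 1 PBS array inside the oil range. The mitotic kinase gene Wee1 differed by 0.40 (SE 0.14), the NAD enzyme gene Nampt by 0.29 (SE 0.12) and Tef by 0.17 (SE 0.06). Dbp, which swings widely over a day in mouse liver, was at 10.42, 10.74, 10.69, 10.79 and 10.67 with oil and at 10.35, 10.73, 10.64, 10.63 and 10.62 with PBS (difference 0.07, SE 0.10, adjusted p = 0.913). Its arrays overlapped almost fully.

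**Figure D2:**
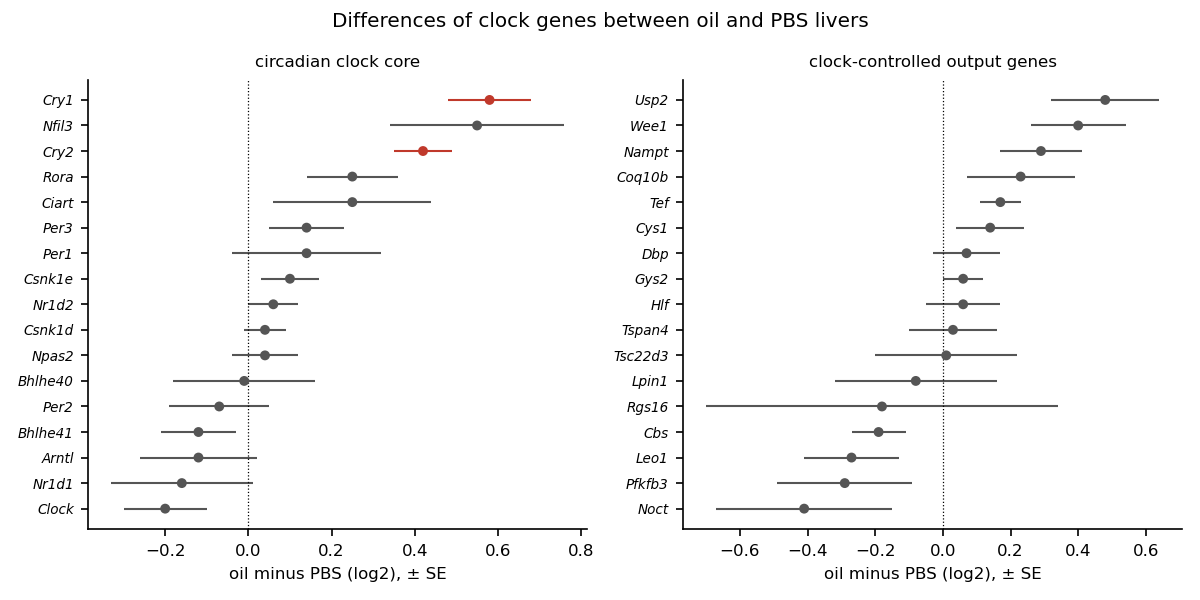
Difference between oil and PBS (log2, ± SE of the fit) of 17 core clock genes and 17 clock-controlled genes; red points are genes whose oil and PBS arrays do not overlap. Cry1 and Cry2 are the only red points, and the PER, REV-ERB and CLOCK genes lie on both sides of zero.

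Genes of fatty acid oxidation lay slightly higher with oil. Of 27 measured PPARalpha targets and oxidation genes, 26 were above zero and the median was 0.11, while 0 passed the test. Their mean level per array ran from 9.11 to 9.48 with oil and from 8.77 to 9.31 with PBS, so these means overlapped. It ran from 9.21 to 9.45 in EE2 livers and from 9.12 to 9.47 in CPZ livers, which were given PBS. Ech1 and Ppara, 2 of the 27, had non-overlapping groups, beside 0.917% of all genes with every oil array above every PBS array and 0.771% with every oil array below.

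Ech1, an auxiliary enzyme for the oxidation of unsaturated fatty acids, was the closest to the threshold. It was at 12.02, 12.00, 11.93, 11.99 and 12.05 with oil and at 11.62, 11.88, 11.81, 11.64 and 11.67 with PBS (difference 0.27, SE 0.05, adjusted p = 0.0646). Ppara, the receptor gene, was at 10.44, 10.41, 10.42, 10.37 and 10.37 with oil and at 10.27, 10.25, 10.30, 10.18 and 10.17 with PBS (difference 0.17, SE 0.07, adjusted p = 0.492). In both genes every oil array exceeded every PBS array. Ech1 was at 11.50 to 11.65 in EE2 livers, given oil, and at 11.89 to 12.02 in CPZ livers, given PBS. Ppara was at 9.94 to 10.44 in EE2 livers and at 9.93 to 10.11 in CPZ livers. Eci2, another isomerase for unsaturated fats, differed by 0.24 (SE 0.08, adjusted p = 0.338) and the carnitine carrier Slc25a20 by 0.20 (SE 0.07, adjusted p = 0.338).

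The steep PPARalpha targets were too variable to place. Acot3, a peroxisomal thioesterase, had the largest positive difference of all genes, 1.07 (SE 0.52, adjusted p = 0.589), with oil at 7.53, 7.51, 6.26, 5.88 and 6.33 and PBS at 4.96, 6.34, 6.75, 5.51 and 4.59. Cyp4a14, an omega-hydroxylase, was at 9.12, 9.81, 7.37, 7.47 and 8.61 with oil and at 6.93, 8.12, 9.38, 8.45 and 5.61 with PBS (difference 0.78, SE 0.61, adjusted p = 0.789). The groups overlapped in both. Cyp4a10 differed by 0.10 (SE 0.29), the fasting hormone Fgf21 by 0.11 (SE 0.32), the lipoprotein lipase inhibitor Angptl4 by 0.36 (SE 0.29) and the kinase Pdk4 by 0.33 (SE 0.26).

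Vnn1, a pantetheinase, differed by 0.70 (SE 0.27, adjusted p = 0.449), with PBS arrays 19 and 20 at 6.74 and 6.89 and the other 8 vehicle arrays between 8.08 and 8.77. Cpt1a, the entry enzyme of mitochondrial oxidation, differed by 0.07 (SE 0.09, adjusted p = 0.894). Ehhadh, a peroxisomal enzyme and a strong PPARalpha target, was the 1 gene below zero, at -0.20 (SE 0.08, adjusted p = 0.49). Without PBS array 20 the list had 22 of 27 above zero and a median of 0.09.

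Genes that make fatty acids and triglycerides lay mostly lower with oil. Of the 27 measured, 21 were below zero and the median was -0.11, with 0 passing. Their mean level per array ran from 9.28 to 9.57 with oil and from 9.40 to 9.63 with PBS, so these means overlapped. It ran from 8.77 to 9.46 in EE2 livers and from 9.29 to 9.63 in CPZ livers. Scd1, the desaturase that makes oleic acid, was at 11.84, 12.03, 11.65, 11.55 and 11.99 with oil and at 12.45, 12.24, 12.58, 12.37 and 12.45 with PBS (difference -0.61, SE 0.32, adjusted p = 0.631). Elovl5, an elongase of polyunsaturated fats, was at 11.75, 11.97, 11.69, 11.77 and 11.94 with oil and at 12.17, 12.05, 12.33, 12.20 and 12.11 with PBS (difference -0.35, SE 0.11, adjusted p = 0.318). Neither gene had overlapping vehicle groups. For Scd1 the SE is set by the spread of all 4 groups, and EE2 livers ran from 8.59 to 11.24.

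Elovl3 likewise had every oil array below every PBS array (difference -0.48, SE 0.20, adjusted p = 0.49). Insig2, which holds SREBP in the endoplasmic reticulum, differed by -0.50 (SE 0.12, adjusted p = 0.169), Srebf1, which encodes SREBP-1, by -0.30 (SE 0.14), the synthase Fasn by -0.41 (SE 0.27) and Elovl6 by -0.44 (SE 0.27). PBS array 19 had the lowest PBS level of Srebf1, Fasn and Elovl6, at 10.97, 10.54 and 9.21. The desaturases Fads1 and Fads2 differed by -0.08 (SE 0.10) and 0.01 (SE 0.10) and the lipase-like gene Pnpla3 by -0.11 (SE 0.17). Against this direction, the phosphatidate phosphatase gene Lpin2 differed by 0.37 (SE 0.12, adjusted p = 0.338).

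**Figure D3:**
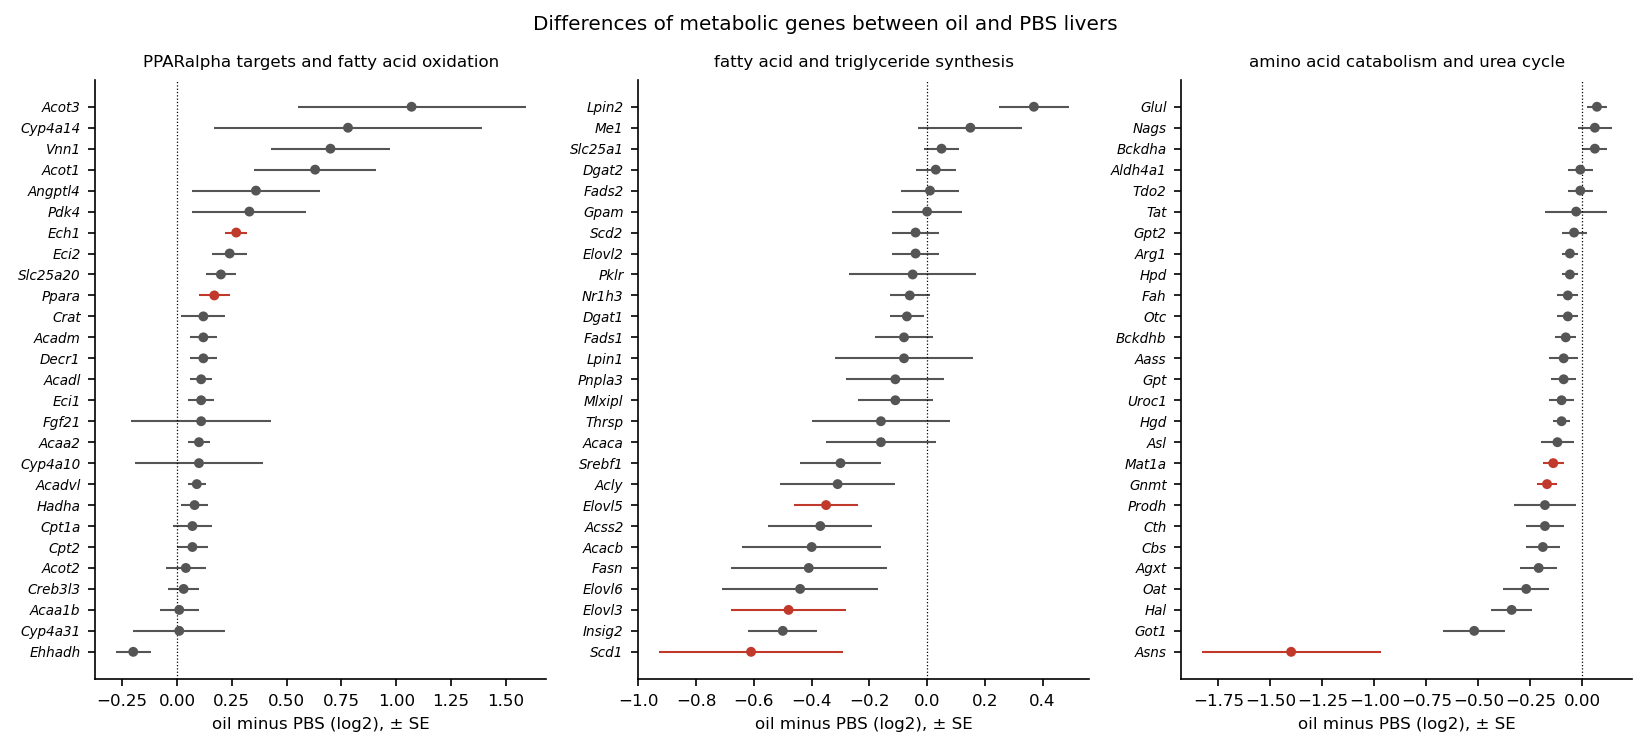
Difference between oil and PBS (log2, ± SE of the fit) of each measured member of 3 lists; red points are genes whose oil and PBS arrays do not overlap. Of the oxidation genes 26 of 27 lie right of zero, among the synthesis genes 21 of 27 and of the amino acid genes 24 of 27 lie left of zero, and 0 of them passed the test.

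No gene of lipid storage, uptake or sterol handling passed the test. The droplet coat gene Plin2, a usual marker of stored fat, was at 11.73, 11.71, 11.75, 11.70 and 11.83 with oil and at 11.68, 11.68, 11.84, 11.87 and 11.36 with PBS (difference 0.06, SE 0.11, adjusted p = 0.942). The droplet fusion gene Cidec differed by -0.05 (SE 0.16), the fatty acid receptor Cd36 by -0.07 (SE 0.14), and the lipolysis inhibitor G0s2 by 0.65 (SE 0.29, adjusted p = 0.536). The means of Cidec, 2.97 with oil and 3.02 with PBS, lay below the lower quartile of all genes (3.16 and 3.15). Cidec is thus not shown to be above background. Of 15 droplet and lipase genes, 10 were above zero with a median of 0.07, and of 15 uptake and binding genes 4, with a median of -0.06. None in either list passed.

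Cholesterol synthesis held 4 of 16 members above zero and a median of -0.04, with Sqle, an early enzyme of the sterol branch, at -0.18 (SE 0.15, adjusted p = 0.803). The sterol exporters Abcg5 and Abcg8 differed by -0.16 (SE 0.11) and -0.21 (SE 0.11). Mylip, a ubiquitin ligase gene that LXR induces, was at 7.62, 7.70, 7.55, 7.65 and 7.68 with oil and at 7.01, 7.50, 7.35, 7.15 and 7.24 with PBS (difference 0.39, SE 0.09, adjusted p = 0.161). Npc1, the lysosomal cholesterol carrier, also had every oil array higher (difference 0.16, SE 0.05, adjusted p = 0.339). Ttpa, the liver carrier of vitamin E, differed by -0.03 (SE 0.06, adjusted p = 0.944).

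In bile acid handling, 0 of 24 genes passed and 9 were above zero, with a median of -0.02. Abcb11, which pumps bile salts into bile, was at 10.72, 10.69, 10.67, 10.64 and 10.60 with oil and at 11.17, 10.86, 10.89, 10.94 and 10.93 with PBS (difference -0.29, SE 0.07, adjusted p = 0.176). Slco1a4, a sinusoidal uptake carrier, was at 8.97, 9.24, 9.37, 9.38 and 8.51 with oil and at 9.55, 9.83, 10.10, 9.90 and 9.85 with PBS (difference -0.75, SE 0.16, adjusted p = 0.0968). Each had every oil array below every PBS array, while Cyp7b1, an oxysterol hydroxylase, had every oil array above (difference 0.36, SE 0.12, adjusted p = 0.338). Cyp7a1, whose enzyme sets the pace of the classic bile acid pathway, was at 8.35, 10.20, 8.47, 8.98 and 9.88 with oil and at 10.32, 10.15, 10.27, 9.27 and 9.55 with PBS (difference -0.74, SE 0.31, adjusted p = 0.484). Its oil arrays spread widely, and Cyp8b1, which decides the cholic acid share, differed by -0.22 (SE 0.21, adjusted p = 0.848).

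Cyp2b10 was the drug-metabolizing gene nearest the threshold. It is the classic target of the nuclear receptor CAR, and it was at 3.40, 3.03, 3.59, 3.02 and 2.94 with oil and at 4.43, 3.95, 4.95, 4.94 and 4.17 with PBS. Every oil array was lower, with a difference of -1.29 (SE 0.25, adjusted p = 0.0672). Its mean with oil, 3.20, lay close to the lower quartile of all genes on the oil arrays, 3.16, so its level there is not shown to be above background and no fold is given. It stood at 6.60 to 7.99 in EE2 livers and at 8.07 to 9.17 in CPZ livers, above both vehicles. Of the 19 measured CAR and PXR targets 0 passed, 7 were above zero and the median was -0.08. Cyp2c55 differed by -0.53 (SE 0.19), Cyp2c29 by -0.14 (SE 0.05) and the PXR gene Nr1i2 by 0.23 (SE 0.09).

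The quinone reductase Nqo1 was at 5.84, 5.98, 5.21, 5.78 and 5.51 with oil and at 6.25, 6.22, 6.42, 6.12 and 6.11 with PBS (difference -0.56, SE 0.17, adjusted p = 0.282), again with no overlap. The sulfiredoxin gene Srxn1 differed by -0.26 (SE 0.12, adjusted p = 0.553). Of the 19 antioxidant genes 7 were above zero, and the median was -0.03. Cyp17a1, which makes androgen precursors and is usually higher in female mouse liver, was at 5.34, 4.49, 4.64, 5.09 and 5.43 with oil and at 5.72, 5.55, 6.65, 7.03 and 6.21 with PBS (difference -1.24, SE 0.29, adjusted p = 0.154). The female-biased sulfotransferase Sult3a1 differed by -0.50 (SE 0.16, adjusted p = 0.297) and the male-biased esterase Ces4a by 0.48 (SE 0.13, adjusted p = 0.234). The mean of Sult3a1 with oil, 2.93, is not shown to be above background. The 19 female-biased genes had a median of -0.11 with 7 above zero and the 15 male-biased genes a median of 0.09 with 10 above zero, and 0 of either list passed. Without PBS array 20 the medians were -0.14 for the female-biased and 0.03 for the male-biased genes.

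Amino acid catabolism and urea cycle genes lay lower with oil in 24 of 27 cases, with a median of -0.09 and 0 passing. Their mean level per array ran from 11.02 to 11.08 with oil and from 11.15 to 11.30 with PBS, so these means did not overlap, and it ran from 11.04 to 11.25 in EE2 livers and from 11.13 to 11.26 in CPZ livers. Asns, asparagine synthetase, whose promoter with an amino acid response element is shown above, was at 4.82, 4.90, 4.40, 5.12 and 5.11 with oil and at 5.25, 6.09, 5.82, 7.74 and 6.44 with PBS (difference -1.40, SE 0.43, adjusted p = 0.296). PBS array 19 was by far the highest. With the sample number as a covariate the differences were -0.76 for Asns and -0.29 for Got1, the aminotransferase described next. Of the 24 heat shock and unfolded protein response genes, a list that also holds Asns, 17 were above zero and 0 passed, with Trib3 at 0.34 (SE 0.13, adjusted p = 0.47) and Ddit3 at 0.30 (SE 0.14, adjusted p = 0.564).

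Got1, the cytosolic aspartate aminotransferase, was at 10.64, 10.41, 10.46, 10.84 and 10.76 with oil and at 10.70, 10.98, 11.10, 11.38 and 11.54 with PBS (difference -0.52, SE 0.15, adjusted p = 0.234). Gnmt was at 13.42, 13.30, 13.34, 13.32 and 13.34 with oil and at 13.57, 13.48, 13.52, 13.50 and 13.49 with PBS (difference -0.17, SE 0.05, adjusted p = 0.243). The groups overlapped for Got1. Asns, Gnmt and Mat1a were the 3 of 27 genes with every oil array below every PBS array, beside 0.771% of all genes. Mat1a, the enzyme that makes S-adenosylmethionine, differed by -0.14 (SE 0.05, adjusted p = 0.464). The histidine ammonia lyase Hal differed by -0.34 (SE 0.10, adjusted p = 0.265).

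No fasting or glucose gene passed the test. The gluconeogenic genes Pck1 and G6pc differed by 0.37 (SE 0.20) and -0.18 (SE 0.33) and the stress-responsive Igfbp1 by -0.12 (SE 0.48), with Igfbp1 between 8.50 and 11.47 with oil and between 9.21 and 11.55 with PBS. Of 21 fasting genes 14 were above zero with a median of 0.04, and of 14 feeding and insulin genes 8 with a median of 0.05, with 0 of either list passing. Without PBS array 20 the fasting genes had a median of 0.07 with 16 above zero. The transcription factor Onecut1 differed by -1.09 (SE 0.52, adjusted p = 0.578), with oil at 6.43, 5.93, 8.42, 8.25 and 8.92 and PBS between 8.32 and 9.34. Oil arrays 2 and 5 were the low ones.

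Metallothioneins and acute phase genes were among the largest differences in size, and none of these passed the test. In all, 17 genes were at least 2-fold lower with oil. They include Cyp2b10 and Moxd1, whose oil means of 3.20 and 3.03 are not shown to be above background. Of the 17 genes, 11 had no overlap between the groups, Cyp2b10 among them. Over all genes the share was 0.771%, and the 17 were already picked for their size. The 2 genes at least 2-fold higher, Acot3 and the immediate early gene Nr4a1 (1.01, SE 0.41), both overlapped. Nr4a1 stood at 7.79 on oil array 2 and its difference was 0.58 without that array, and that of Acot3 was 0.81 without PBS array 20. Mt2, a metal-binding protein that metals and glucocorticoids induce, was at 5.90, 6.08, 6.33, 5.80 and 6.18 with oil and at 7.27, 6.75, 7.96, 7.99 and 8.94 with PBS (difference -1.72, SE 0.57, adjusted p = 0.338). Its neighbour Mt1 was at 9.03, 9.21, 9.53, 9.46 and 9.76 with oil and at 10.36, 10.14, 10.80, 11.02 and 11.12 with PBS (difference -1.29, SE 0.39, adjusted p = 0.285). Every oil array was lower than every PBS array for both. In the promoter windows printed above Mt2 holds 3 metal response cores and Mt1 holds 1, and 21.4% of all windows hold the core. Bases outside these windows were not searched, so the counts do not compare the 2 genes.

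PBS array 20 was the highest for both metallothioneins, and without it the differences were -1.43 (adjusted p = 0.505) for Mt2 and -1.18 (adjusted p = 0.426) for Mt1. With the sample number as a covariate they were -1.07 (adjusted p = 0.764) for Mt2 and -0.85 (adjusted p = 0.692) for Mt1. CPZ livers ran from 5.71 to 9.78 for Mt2 and from 9.23 to 12.53 for Mt1, and EE2 livers from 9.00 to 10.70 for Mt2 and from 10.44 to 11.71 for Mt1. These wide ranges enter the SE, since the 4 groups share one estimate of spread. In the limma fit to the 10 oil and PBS arrays alone the SE was 0.31 for Mt2 and 0.19 for Mt1. Their adjusted p there was 0.0926 and 0.0653, so neither passed.

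Among acute phase genes, which the liver makes in response to inflammation, 20 of 25 lay below zero with a median of -0.05 and 0 passed. The serum amyloid gene Saa1 was at 9.08, 9.19, 9.88, 9.47 and 9.57 with oil and at 10.61, 10.20, 9.88, 10.41 and 12.72 with PBS (difference -1.33, SE 0.61, adjusted p = 0.563). The orosomucoid Orm2 was at 7.18, 7.30, 7.11, 7.32 and 6.96 with oil and at 8.44, 8.79, 8.20, 7.56 and 10.49 with PBS (difference -1.52, SE 0.64, adjusted p = 0.491). In both genes all oil arrays lay below all PBS arrays, for Saa1 by a narrow margin, and PBS array 20 was far above the other vehicle arrays. CPZ livers, also given PBS, ran from 8.27 to 12.68 for Saa1 and from 8.14 to 12.14 for Orm2. EE2 livers, given oil, ran from 10.80 to 11.74 for Saa1 and from 7.41 to 9.02 for Orm2. Lcn2, which encodes a protein that binds bacterial iron carriers, was at 4.73, 5.11, 5.86, 5.03 and 4.93 with oil and at 5.78, 5.72, 5.81, 5.43 and 9.39 with PBS (difference -1.30, SE 0.87, adjusted p = 0.735). It ran from 5.01 to 10.41 in CPZ livers and from 9.32 to 10.75 in EE2 livers.

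Without PBS array 20 the differences were -0.84 (adjusted p = 0.754) for Saa1, -1.07 (adjusted p = 0.696) for Orm2, -0.55 (adjusted p = 0.912) for Lcn2 and -0.57 (adjusted p = 0.892) for Saa2, against -1.27 with it. Orm3 differed by -1.57 (SE 0.54, adjusted p = 0.374), or -1.17 without that array. Without it 18 of the 25 acute phase genes lay below zero, with a median of -0.03. The mean level of the 25 genes ran from 9.53 to 9.76 with oil and from 9.71 to 9.76 on 4 PBS arrays, with array 20 at 10.48. It ran from 9.74 to 10.73 in CPZ livers and from 10.35 to 10.80 in EE2 livers. Neutrophil markers were also high on PBS array 20. Their mean was 3.75 to 4.03 with oil, 3.95 to 4.05 on 4 PBS arrays and 4.56 on array 20. Their part in these differences was not tested.

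**Figure D4:**
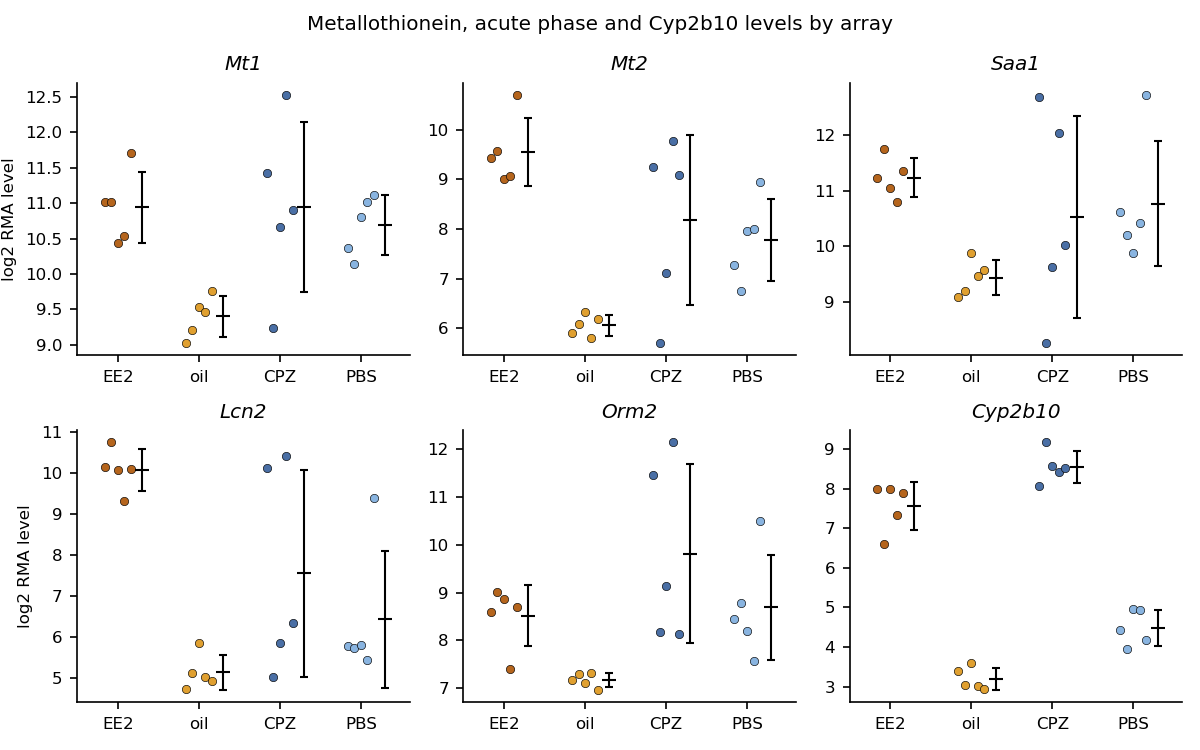
Log2 RMA level on each array of Mt1, Mt2, Saa1, Lcn2, Orm2 and Cyp2b10, with the EE2, oil, CPZ and PBS groups from left to right; points are arrays and bars are the mean ± SD of 5 arrays. Each oil point lies below each PBS point except for Lcn2, where oil array 6 (5.86) lies within the PBS range (5.43 to 9.39). The lowest CPZ points for Saa1 (8.27) and Mt2 (5.71) lie below all oil points. A single PBS point (array 20) stands at 12.72 for Saa1, 9.39 for Lcn2 and 10.49 for Orm2.

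Further genes at least 2-fold lower with oil were singled out after their values were seen. Tff3, a trefoil peptide of mucous cells, had the largest difference of all genes at -1.85 (SE 0.51, adjusted p = 0.226), with oil at 6.58, 6.45, 7.70, 7.22 and 7.22 and PBS at 8.09, 7.56, 7.92, 11.20 and 9.64. Mmd2, a membrane protein, was at 4.49, 4.53, 4.38, 4.71 and 4.84 with oil and at 5.73, 5.79, 5.22, 6.69 and 5.93 with PBS (difference -1.28, SE 0.28, adjusted p = 0.12). PBS array 19 was the highest for both, and the groups overlapped for Tff3 but not for Mmd2. Hamp2, a hepcidin gene of the mouse, differed by -1.19 (SE 0.34, adjusted p = 0.236) without overlap. Moxd1 differed by -1.22 (SE 0.81, adjusted p = 0.73), and by -0.58 without PBS array 20, where it was at 6.84.

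Stress and immediate early genes lay mostly higher with oil. Of 28 measured genes of the glucocorticoid and stress list 21 were above zero, with a median of 0.19 and 0 passing. The 7 below zero included the metallothioneins. The list's mean level per array ran from 6.02 to 6.53 with oil and from 5.91 to 6.33 with PBS, so these means overlapped. It ran from 6.87 to 7.04 in EE2 livers and from 6.17 to 6.66 in CPZ livers. Junb, a subunit of AP-1, was at 5.14, 5.27, 6.20, 5.38 and 5.07 with oil and at 4.28, 4.27, 4.48, 5.34 and 5.30 with PBS (difference 0.68, SE 0.24, adjusted p = 0.386). Zbtb16, a glucocorticoid-responsive factor, was at 4.82, 4.63, 4.81, 5.19 and 5.09 with oil and at 4.49, 4.56, 4.26, 4.42 and 4.51 with PBS (difference 0.46, SE 0.17, adjusted p = 0.449). Only Zbtb16 of these had no overlap. Fkbp5, another glucocorticoid target, differed by 0.34 (SE 0.17, adjusted p = 0.614) and Gadd45g by 0.44 (SE 0.32, adjusted p = 0.769).

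Interferon response genes lay lower with oil in 19 of 21 cases, with a median of -0.10 and 0 passing. Without PBS array 20 the count was 16 of 21 and the median -0.06. The list's mean level per array ran from 6.47 to 6.68 with oil and from 6.60 to 6.80 with PBS, so these means overlapped. The antiviral genes Ifit1, Rsad2 and Ddx58 differed by -0.45 (SE 0.17), -0.37 (SE 0.13) and -0.21 (SE 0.07), with adjusted p of 0.431, 0.408 and 0.376. Irf1 was 1 of the 2 above zero, at 0.23 (SE 0.09, adjusted p = 0.482). Cell cycle genes lay the other way, with 21 of 25 above zero and a median of 0.10. Their mean level per array ran from 4.15 to 4.31 with oil and from 3.95 to 4.19 with PBS, which overlapped too. Ccne2, a cyclin of S phase entry, was at 4.18, 4.06, 3.62, 3.79 and 3.62 with oil and at 3.29, 3.36, 3.29, 3.55 and 3.46 with PBS (difference 0.46, SE 0.11, adjusted p = 0.154), without overlap. Cdk1 and Top2a differed by 0.42 (SE 0.19) and 0.30 (SE 0.14). The means of Top2a, 3.26 with oil and 2.97 with PBS, are not shown to be above background.

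Markers of macrophages and of endothelium lay higher with oil. Of 20 macrophage markers 19 were above zero with a median of 0.27, and of 19 endothelial markers 17 with a median of 0.18, and 0 of either list passed. The mannose receptor Mrc1 was at 8.83, 8.81, 8.86, 8.62 and 8.68 with oil and at 8.25, 8.48, 8.44, 8.51 and 8.36 with PBS (difference 0.35, SE 0.09, adjusted p = 0.162). Fcgr2b, an Fc receptor of sinusoidal endothelium, was at 8.31, 8.45, 8.55, 8.19 and 8.16 with oil and at 7.80, 8.08, 7.90, 7.97 and 7.96 with PBS (difference 0.39, SE 0.09, adjusted p = 0.113). Both had all oil arrays above all PBS arrays. RNA of a whole tissue piece cannot tell more cells of a type from more RNA per cell.

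The Kupffer cell receptor Timd4 also had no overlap, at 5.33 to 5.56 with oil and 4.86 to 5.28 with PBS (difference 0.27, SE 0.16, adjusted p = 0.679), and was named after its values were seen. Adgre1, the gene of a macrophage surface receptor, differed by 0.33 (SE 0.14), Cd68 by 0.36 (SE 0.16), Ms4a7 by 0.35 (SE 0.15) and the complement gene C1qc by 0.34 (SE 0.16). Of the sinusoidal genes Tek, Clec4g and Oit3, each without overlap, the differences were 0.34 (SE 0.09), 0.27 (SE 0.08) and 0.38 (SE 0.11). F8, made by liver endothelium, differed by 0.29 (SE 0.07, adjusted p = 0.176), without overlap too. The mean of the macrophage markers was 6.55 to 6.77 with oil and 6.23 to 6.56 with PBS, and that of the endothelial markers 6.43 to 6.60 with oil and 6.24 to 6.46 with PBS. CPZ livers, also given PBS, stood at 6.68 to 7.30 for macrophage and at 6.54 to 6.64 for endothelial markers, above the PBS arrays.

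Markers of other cells showed no direction common to all types. Of 12 neutrophil markers 9 lay below zero with a median of -0.09, or 8 with a median of -0.07 without PBS array 20. Hepatocyte markers lay below zero in 10 of 15 cases. The immunoglobulin heavy chain gene Ighm was at 6.40, 5.20, 6.06, 5.22 and 6.40 with oil and at 7.08, 6.86, 6.87, 6.01 and 7.36 with PBS (difference -0.98, SE 0.28, adjusted p = 0.237), and the light chain Igkc differed by -0.57 (SE 0.47, adjusted p = 0.801). The other lymphocyte markers left the list's median at -0.01. Of neutrophil markers, the protease Prtn3 differed by -1.17 (SE 0.39, adjusted p = 0.338) without overlap, or by -0.94 without PBS array 20, and S100a8 and S100a9 by -0.56 (SE 0.31) and -0.41 (SE 0.30), or -0.25 and -0.11 without it. The stem cell receptor Lgr5, a mark of hepatocytes at the central vein, differed by 0.72 (SE 0.19, adjusted p = 0.187), while the 18 pericentral genes had a median of 0.01 and the 12 periportal genes -0.01. The markers of hepatocytes, cholangiocytes, stellate cells, red cells, adipocytes and pancreas had medians of -0.03, 0.02, 0.01, -0.04, 0.01 and 0.04.

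**Figure D5:**
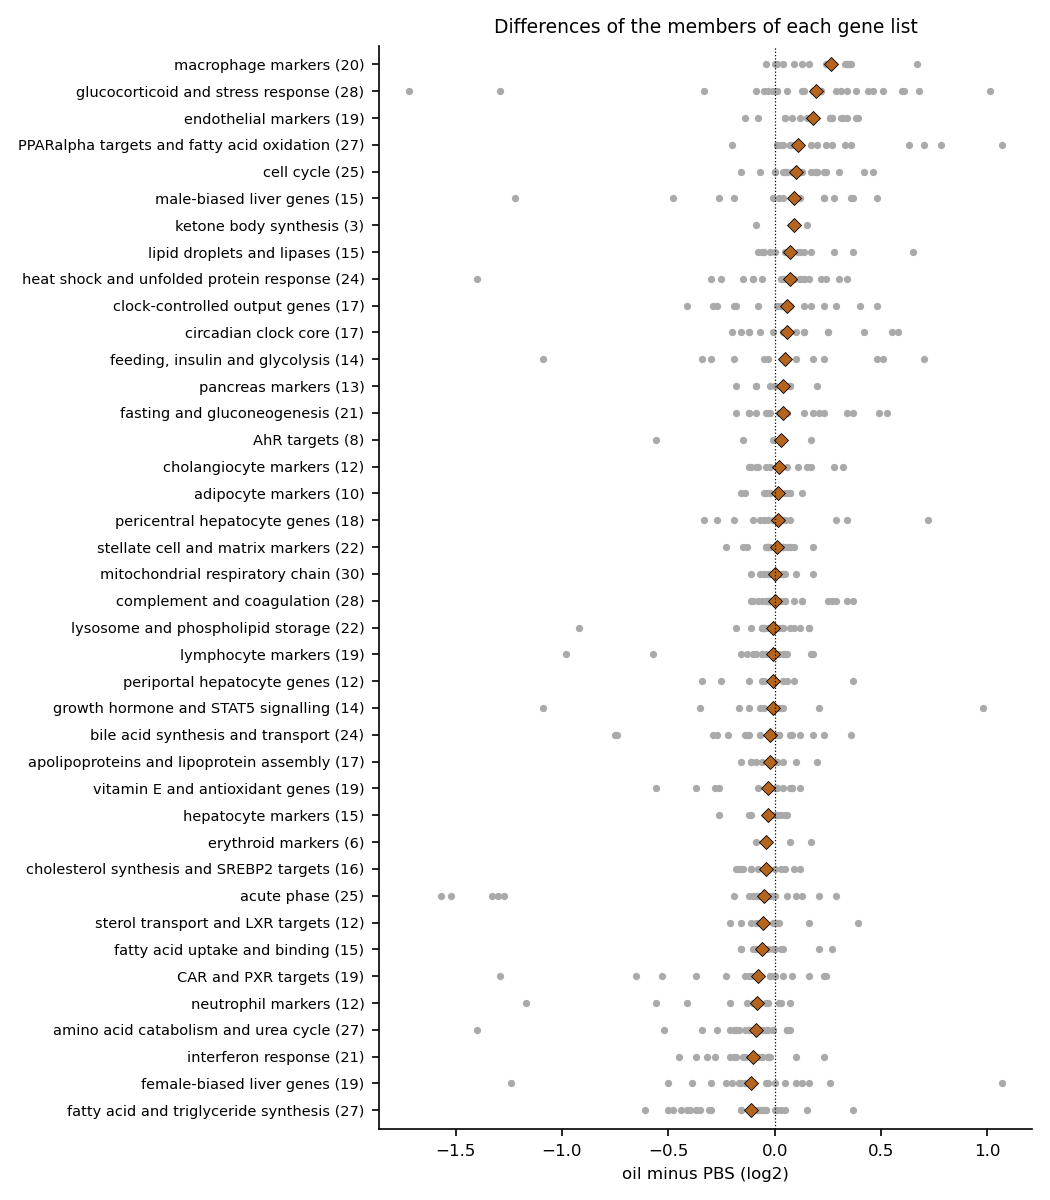
Difference between oil and PBS (log2) of every measured member of 40 gene lists; grey points are genes, the diamond is the list's median and the number of genes is in brackets. Macrophage markers have the highest median (0.27) and the synthesis of fatty acids and triglycerides and the female-biased genes share the lowest (-0.11), the respiratory chain lies at 0.00, and single points reach below -1, among them metallothionein, acute phase and Asns points.

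Genes next to the threshold add functions outside these lists. Among those higher with oil were Slc6a9, a glycine transporter, at 0.34 (SE 0.06, adjusted p = 0.05, just above the threshold), the cilium gene Wdr19 at 0.70 (SE 0.14, adjusted p = 0.073), the autophagy gene Map1lc3a at 0.29 (SE 0.06, adjusted p = 0.073), Crebrf at 0.58 (SE 0.12, adjusted p = 0.079), and Epb41l4a at 0.32 (SE 0.06, adjusted p = 0.08). The mitochondrial nucleotide carrier Slc25a33 and the histone demethylases Kdm3a and Kdm6b followed at 0.62, 0.43 and 0.41. The means of Epb41l4a, 3.26 with oil and 2.95 with PBS, are not shown to be above background. Among those lower with oil, besides Papss2, Cyp2b10 and Slco1a4, were the presenilin Psen2 at -0.40 (SE 0.08, adjusted p = 0.0545), the actin-binding Ablim1 at -0.36 (SE 0.08, adjusted p = 0.102), the kinase Camk1d at -0.60 (SE 0.13, adjusted p = 0.102) and Rabl3 at -0.33 (SE 0.07, adjusted p = 0.105). Slc6a9 was at 6.58, 6.67, 6.73, 6.77 and 6.47 with oil and at 6.26, 6.38, 6.32, 6.31 and 6.24 with PBS, with no overlap.

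Of 42 measured genes chosen by name for fat metabolism, the clock, stress and inflammation, 0 passed the test. No gene of the 42 had all oil arrays above all PBS arrays, beside 0.917% of all genes, and 5 had all oil arrays below, beside 0.771% of all genes: Scd1, Cyp2b10, Saa1, Mt1 and Mt2.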

How the data were processed

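Liver RNA from the left lateral lobe was labelled with biotin and measured on Affymetrix arrays, per the labels. The deposited values are log2 levels that the authors made by RMA, per the submitters' processing notes. They ran from 1.91 to 14.2, and the sources used here do not give the probe definition, the genome build or which arrays were normalized as one batch. Of 17306 probe sets, 16464 carried 1 gene symbol in the platform table and were tested, 0 carried several, and the 842 with no symbol are unnamed here. No array duplicated another. The values were used without rescaling or filtering.

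Groups followed the labels. Means of the 4 groups were fitted to all 20 arrays with limma 3.58.1 in R 4.3.3 (16 residual and 4.25 prior degrees of freedom), tested as oil minus PBS, two-sided, adjusted by Benjamini-Hochberg over all genes and called under 0.05. The members and lists were chosen with earlier results of these data known. The 40 lists name 796 genes, of which 670 were measured. The other list genes were not analysed here. Named genes were the called ones, the next by smallest p up to 12 each way, 42 measured genes chosen by name, and up to 4 members per list with the smallest p, as examples. The 21 genes outside that rule were named after their values were seen: Ppara, Mat1a, Timd4, Clock, Ehhadh, 5 genes of at least 2-fold difference (Nr4a1, Tff3, Mmd2, Moxd1 and Hamp2) and 11 of the genes in which oil and EE2 arrays lay apart from PBS and CPZ arrays. Alb and Ttr serve to check the tissue. The test was tested on simulated data.

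The alternatives were quantile normalization, median centring of the arrays, a filter on the lowest 30% of genes, array weights, an intensity trend together with a robust prior, the sample number as covariate, fits to the 10 vehicle arrays or to the 15 arrays without EE2, the mean of PBS and CPZ in place of PBS, and leaving out each array in turn.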

Additional observations from a re-analysis of the deposited data

Results flagged for a closer look

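In groups of 5 arrays the highest or lowest value was set against the range of its group for 374 groups of values, and 18 stood apart. Chance alone sets apart about 1 in 20 groups. PBS array 20 accounts for 6 of them. It was high for Lcn2 (9.39), Saa1 (12.72), Saa2 (10.36) and the clock repressor Per3 (4.15), and for the mean levels of the acute phase genes (10.48) and of the neutrophil markers (4.56). PBS array 7 was high for the bile salt pump Abcb11 (11.17) and for Zfp638 (7.31), and low for the mean of the stellate cell and matrix markers (5.88). PBS array 19 was high for the desaturase Fads1 (11.71) and PBS array 14 for Hspb8 (9.57).

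Among the oil arrays, array 2 was high for Arntl (3.64) and for the mean of the heat shock and unfolded protein response genes (8.95). Array 6 was high for Junb (6.20) and for the means of the acute phase genes (9.76) and of the cholangiocyte markers (4.31). Array 16 was low for Ddit3 (5.78), and array 8 was low for the mean of the lipid droplet genes (7.21).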

How the results depend on the processing

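No paired analysis was possible because the groups share no sample number. Against 3 genes called higher and 5 called lower with oil, the counts were 4 and 6 with quantile normalization and with centring, 3 and 6 with array weights, 5 and 7 without the lowest 30% of genes, and 6 and 7 with an intensity trend and robust prior. They were 1 and 6 in the 15 arrays without EE2, and 37 and 50 against the mean of PBS and CPZ, which shares all 8 calls. That comparison has more arrays and also takes in the effect of CPZ: Cyp2b10, at 4.07 for CPZ minus PBS, was at -3.33 in it. With the sample number as a covariate they were 0 and 2, Trim2 (adjusted p = 0.0142) and Aldh1b1 (adjusted p = 0.0428). In the 10 oil and PBS arrays alone limma called 0 and 0, with 1337 genes at an unadjusted p under 0.05. That fit has fewer arrays from which to estimate the spread. Leaving out 1 array gave 0 to 10 higher and 2 to 9 lower calls: 10 and 9 without PBS array 19, 5 and 7 without oil array 16, 0 and 2 without PBS array 14, 0 and 3 without oil arrays 5 or 8, 1 and 3 without oil arrays 2 or 6 or PBS array 20. The 8 called genes kept their sign in all 19 settings, and 0 of them passed in every setting. Of 2790 values of the 147 named genes, 33 changed sign, in 17 genes that passed in no such fit. With PBS and CPZ averaged, Cd68 was at -0.04, Cyp4a10 at -0.28, Cyp4a14 at -0.11, Cidec at 0.03, Npas2 at -0.01, Per2 at 0.18, Gadd45g at -0.55, G6pc at 0.01 and Timd4 at -0.01. With the sample number as a covariate, Fads1 was at 0.00, Cyp4a10 at -0.16 and Pdk4 at -0.10, and with array weights Cyp4a10 was at -0.02. Leaving out 1 array took Fads2 between -0.04 and 0.06, Cyp4a10 between -0.14 and 0.31, Fgf21 between -0.17 and 0.41, Plin2 between -0.02 and 0.10, Cidec between -0.15 and 0.02, Cd36 between -0.15 and 0.02, Ttpa between -0.07 and 0.00, Npas2 between -0.01 and 0.08, Igfbp1 between -0.49 and 0.25 and G6pc between -0.35 and 0.10. Of 480 list medians 1 moved by more than its spread, that of the apolipoproteins, at 0.00 with quantile normalization. The cause was not tested for any of these. With 5 arrays a group, differences near the median SE of 0.08 are not detectable.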

Other observations

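Several lists of liver genes were described above only in part, or not at all. Of 30 measured subunits of the mitochondrial respiratory chain, 14 were above zero and the median was 0.00, with differences between -0.11 and 0.18. Of 28 complement and coagulation genes 13 were above zero, with a median of 0.00 and differences between -0.11 and 0.37. Of 17 apolipoprotein and lipoprotein assembly genes 5 were above zero, with a median of -0.02, and of 12 sterol transport genes 4, with a median of -0.05. The 24 heat shock and unfolded protein response genes had a median of 0.07 with 17 above zero (differences between -1.40 and 0.34), the 14 growth hormone and STAT5 genes -0.01 with 6 (differences between -1.09 and 0.98), the 8 targets of the aryl hydrocarbon receptor 0.03 with 5, and the 3 ketone body genes 0.09 with 2. None of these genes passed the test.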
